A study of Mus musculus with 6 samples.

Results

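Keratins of simple and of injured epithelium were followed in colonic epithelium of mice with and without miR-31. The set holds 9 genes, Krt7, Krt8, Krt18, Krt19, Krt20, Krt23, Krt16, Krt17 and Krt80. Its members are all non-control probes whose RefSeq accession belongs to one of these genes, which gave 11 of the 56605 probes on the array. Krt16 and Krt80 had 2 probes each and the other genes 1. The study compared 3 wild-type male mice with 3 male miR-31 knockout mice, and RNA of each animal was hybridised to its own Agilent one-colour array. The colonic epithelium was collected by flow separation into TRIzol, as the series' design text puts it. The labels and design text leave out the gate, strain, age, housing, how the knockout allele was made, and whether the loss is limited to a cell type. The microRNA itself was not measured, since 0 probes belonged to Mir31 or its host transcript, so the knockout could not be checked on these arrays.

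Keratins are the intermediate filament proteins of epithelial cells, and each filament is built from pairs of a type I (acidic) and a type II (basic) chain. Krt8 (type II) and Krt18 (type I) form the basic pair of simple epithelia such as the colon lining, joined there by Krt19 and, in differentiated surface cells, by Krt20. Krt16 and Krt17 are type I keratins of stratified epithelium that are switched on by wounding. Both have been reported as direct targets of miR-31 in the hair follicle. Of the 9 genes, 6 encode type I and 3 type II chains, and 5 lie on chromosome 11 and 4 on chromosome 15. Krt8 and Krt18 are immediate neighbours among protein-coding genes, with 0 such genes between them, and so are Krt16 and Krt17.

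The deleted microRNA gives 2 mature strands, shown because the comparison is about their loss. The capitals mark the seed, bases 2 to 8 counted from the 5′ end, by which a microRNA pairs with its target transcripts. The sequences are from RefSeq (GRCm38.p6, chromosome 4, minus strand). In that table no other of the 1738 mature mouse microRNAs had either seed.
mmu-miR-31-5p, chr4:88910614-88910635: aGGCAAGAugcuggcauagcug
mmu-miR-31-3p, chr4:88910577-88910599: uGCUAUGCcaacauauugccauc

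Signals are given as intensities (background-subtracted, linear, arbitrary units) and as log2 intensity minus the 75th percentile of the array. This percentile lay between 3005 and 3539. Well above background were 66.6% to 75.6% of probes per array. All arrays lay on 1 slide, the wild-type arrays in row 2 and the knockout arrays in row 1, so slide row and genotype cannot be told apart. Each keratin probe had 1 spot per array, and the extraction software marked 13 of the 66 spots as non-uniform or outlying. All marked spots belonged to Krt7, Krt8, Krt19, Krt20 and Krt23. Over all spots the marked share was 4.95% to 17.3% per array. Pan-epithelial markers fitted the tissue label, since all 10 listed, among them Epcam, Cdh1, Vil1 and Cdx2, were well above background on all 6 arrays.

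With marked spots left out, 7 probes of 6 genes could be tested, and 0 of these 7 differed between genotypes at an adjusted p under 0.05 (limma, Benjamini-Hochberg over 33231 probes). Over all tested probes 0.208% passed, 0.147% higher and 0.0602% lower in knockout tissue. At an unadjusted p under 0.05, 1 of the 7 keratin probes was lower in knockout tissue, 14.3%, and 0 were higher, against 10.5% of all tested probes, 7.25% lower and 3.27% higher. Group values did not overlap for that 1 keratin probe, with knockout below wild-type, and for 17.9% of all tested probes (knockout below in 12.2% and above in 5.75%). A log2 change of 1 or more either way occurred in 0 of 7 keratin probes and in 2.03% of all tested probes. Values below 0 were found for 5 of 7 keratin probes and 60.8% of all tested probes. The median log2 change, knockout minus wild-type, was -0.022 over the 7 keratin probes and -0.058 over all tested probes. With 3 mice per group only 28% of simulated 2-fold changes were recovered and 6% of 1.5-fold changes. Most differences of this size would thus be missed over the array as a whole. The changes were put on probes drawn at random from 28330, with the means and spreads of real probes. No rate was worked out for the keratin probes alone. The arrays measure the RNA of a whole cell preparation, in which fewer cells of a type and less RNA per cell cannot be told apart.

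**Figure D1:**
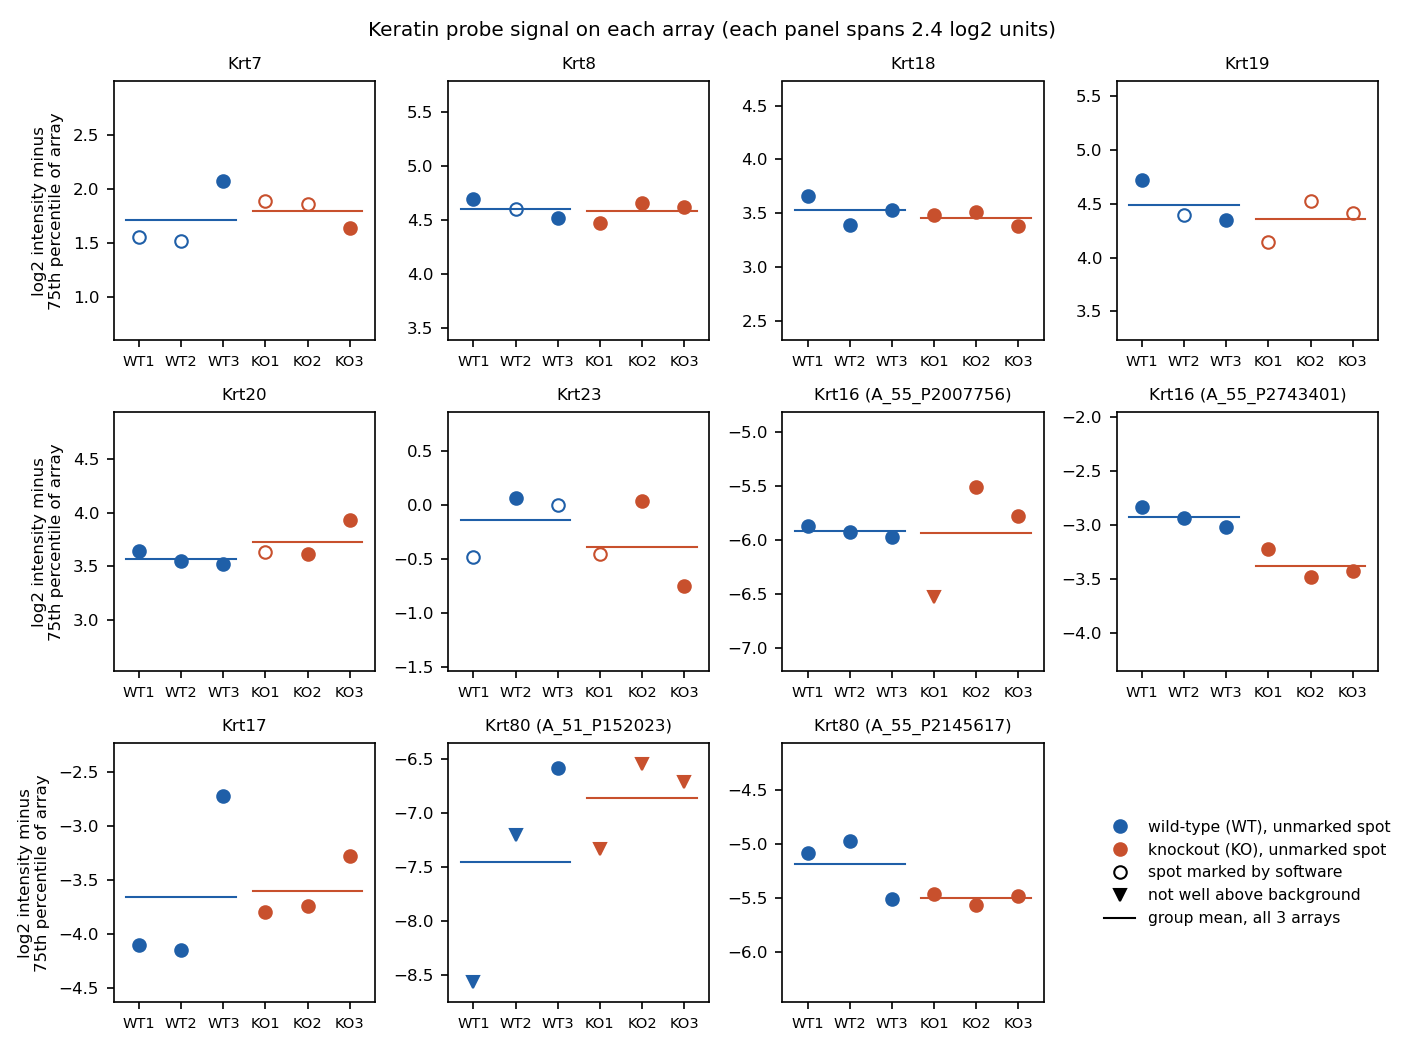
Log2 intensity minus the 75th percentile of the array for the 11 keratin probes on each wild-type (WT) and knockout (KO) array. Open symbols are spots marked by the software, triangles are spots not well above background, and lines are group means over 3 arrays. The groups are separate only for Krt16 probe A_55_P2743401, and Krt17 is high on the third wild-type array.

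Krt8 and Krt18, the obligate partners of simple epithelial filaments, had the smallest spread within groups of the tested members. Krt8 had intensities of 78040, 75714 (marked) and 76820 on the wild-type arrays, in replicate order, and 78635, 78826 and 84466 on those of knockout mice. The groups overlapped, and the log2 change was -0.022 ± 0.14 (SE, n = 2 and 3, limma adjusted p = 0.975). Its 95% confidence interval allowed a knockout level of 0.770 to 1.26 times the wild-type level.

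Krt18 had intensities of 38004, 32620 and 38805 in wild-type mice and 39710, 35596 and 35704 in knockout mice. No array stood apart and the groups overlapped, with a log2 change of -0.068 ± 0.12 (SE, n = 3 and 3, limma adjusted p = 0.888). The interval allowed 0.779 to 1.17 times the wild-type level. The spread between mice of a group was small for both genes: 17.5% of tested probes had a smaller within-group SD than Krt8 and 14.4% a smaller one than Krt18. Both probes were far brighter than the 75th percentile of each array, and the part of brightness in these ranks was not tested. With marked spots kept, the Krt8 over Krt18 signal ratio within an array, on the log2 scale, was 1.08 ± 0.12 (SD, n = 3) in wild-type and 1.12 ± 0.13 (SD, n = 3) in knockout tissue. An exact permutation test over the 6 arrays, two-sided, gave p = 0.7, adjusted to 0.7 over the 2 ratios tested. The smallest p this design allows is 0.1. As the ratio joins 2 probes, only its change between arrays can be read.

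Krt20, the keratin of differentiated surface colonocytes, had intensities of 37497, 36324 and 38503 in wild-type mice and 43941 (marked), 38294 and 52178 in knockout mice. After scaling, knockout replicate 3 was the highest array at 3.93, and the other 5 lay between 3.52 and 3.64. The fit put Krt20 at 0.20 ± 0.15 on the log2 scale (SE, n = 3 and 2, limma adjusted p = 0.698), with 0.885 to 1.5 times the wild-type level inside the interval. Without knockout replicate 3 it was 0.046, and without knockout replicate 2 it was 0.36. The Krt20 over Krt8 ratio, also with marked spots kept, was -1.04 ± 0.036 (SD, n = 3) in wild-type and -0.86 ± 0.17 (SD, n = 3) in knockout tissue on the log2 scale. The exact permutation test, two-sided, gave p = 0.2 (adjusted 0.4).

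Surface colonocyte markers, which share the site of Krt20, were well above background on all 6 arrays for all 11 listed genes on the array. Of these, 8 were tested and 0 passed (limma), with 1 higher at an unadjusted p under 0.05, and their median log2 change was -0.0022. That gene was Guca2b, the uroguanylin gene, at 0.40 ± 0.14 (SE, n = 3 and 2, limma adjusted p = 0.403). Next by p was Slc20a1, a phosphate transporter gene, at -0.53 ± 0.24 (SE, n = 2 and 3, limma adjusted p = 0.521), and 5 of the 8 were below 0. The summed level of the markers, in units of each array's 75th percentile, was 127.7 to 138.7 in wild-type and 114.6 to 138.3 in knockout mice. Knockout replicate 3, the array highest for Krt20, had the highest sum of the knockout group. Wild-type replicate 1 had the highest sum of all arrays, 138.7, and knockout replicate 1 the lowest, 114.6, at nearly equal Krt20 values of 3.64 and 3.63. The part of surface cells in the Krt20 value was not tested.

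Krt8, Krt18 and Krt20 are the simple-epithelial members with a usable test and an entry in the RefSeq promoter table, which holds 5 of the 9 genes (GRCm38.p6). The 250 bases before each start are printed to show the control regions of the Krt8 and Krt18 pair and of the surface keratin. Capitals mark matches to the motifs searched on both strands. The TATA box was searched as TATAAA. The GC box was searched as GGGCGG, and AP-1 sites as TGANTCA. CDX factors, which act in the intestine, were searched as TTTATNNC, which can overlap the TATA box. GATA factors were searched as AGATAA.
Krt8 promoter, chr15:102004343-102004592, minus strand: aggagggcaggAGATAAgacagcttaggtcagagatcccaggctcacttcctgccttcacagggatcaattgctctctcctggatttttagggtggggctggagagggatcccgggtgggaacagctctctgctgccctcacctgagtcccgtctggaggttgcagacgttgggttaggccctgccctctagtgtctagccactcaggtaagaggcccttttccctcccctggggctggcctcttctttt
Krt18 promoter, chr15:102027966-102028215, plus strand: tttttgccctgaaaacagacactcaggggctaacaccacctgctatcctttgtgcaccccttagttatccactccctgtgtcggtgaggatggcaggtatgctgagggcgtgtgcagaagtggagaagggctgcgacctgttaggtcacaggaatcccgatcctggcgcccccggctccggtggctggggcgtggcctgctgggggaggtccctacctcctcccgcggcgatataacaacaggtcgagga
Krt20 promoter, chr11:99438154-99438403, minus strand: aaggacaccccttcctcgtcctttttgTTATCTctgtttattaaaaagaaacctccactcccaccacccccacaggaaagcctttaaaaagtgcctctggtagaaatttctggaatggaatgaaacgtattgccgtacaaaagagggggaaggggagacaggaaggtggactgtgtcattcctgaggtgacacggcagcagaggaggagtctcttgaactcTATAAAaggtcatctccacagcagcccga

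Krt20 alone among the 5 held TATAAA, with its first base 29 bases before the start, a match that 12.4% of all 32841 promoter windows hold. A GATA match lay in Krt20 and Krt8, against 9.99% of windows, and 0 of the 5 held an AP-1 match, against 6.75%. CDX matches lay in Krt7 and Krt23, against 11.2% of windows, and the GC box in Krt7 only, against 32.7%. Such matches describe letters and do not show binding. The Krt18 window had a GC content of 60.4%, Krt8 of 58.0% and Krt20 of 48.0%, against a median of 52.4% over all windows.

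Krt7, Krt19 and Krt23 had too many marked spots for the test, and their values are given with marked spots kept. Krt19, the type I keratin that lacks most of the tail domain, had intensities of 79171, 65164 (marked) and 68050 in wild-type mice and 62578, 71845 and 72917, all marked, in knockout mice. The groups overlapped, at a log2 change of -0.12 ± 0.16 (SE, n = 3 and 3, limma adjusted p = 0.844).

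Krt7, a type II keratin of ducts and glands, had intensities of 8812 (marked), 8874 (marked) and 14099 in wild-type mice and 13097 (marked), 11327 (marked) and 10607 in knockout mice. Wild-type replicate 3 was the highest array and wild-type replicates 1 and 2 were the lowest, so that the knockout arrays fell between them. For Krt7 the fit gave 0.080 ± 0.18 on the log2 scale (SE, n = 3 and 3, limma adjusted p = 0.920). Replicates 1 and 2 of each group have animal numbers with the same first 3 digits, which the labels do not explain, and the third mice share no such start. Among those 4 mice, whose Krt7 spots were all marked, knockout minus wild-type was 0.34 for Krt7. Between the third mice, 1 per group and both unmarked, it was -0.44.

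Krt23, a type I keratin, had intensities of 2148 (marked), 3249 and 3342 (marked) in wild-type mice and 2580 (marked), 3209 and 2030 in knockout mice. The lowest array was knockout replicate 3, followed by replicate 1 of each group, so the groups overlapped. For Krt23 the fit gave -0.25 ± 0.24 on the log2 scale (SE, n = 3 and 3, limma adjusted p = 0.777), and the interval ran from -0.82 to 0.32. With marked spots kept, 0.178% of 41015 tested probes passed and 0 of 10 keratin probes did, with 1 of 10 at an unadjusted p under 0.05, against 10.1% of all probes. Groups did not overlap for 1 of these 10, the Krt16 probe A_55_P2743401, and for 15.2% of all probes.

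**Figure D2:**
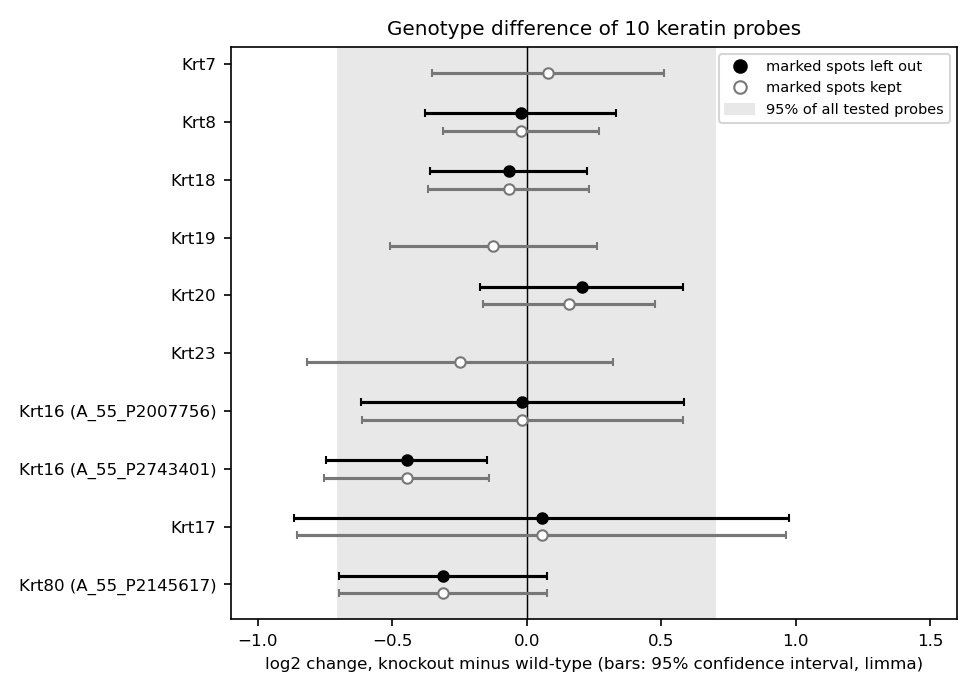
Log2 change, knockout minus wild-type, of the 10 keratin probes that were tested at least with marked spots kept, with 95% confidence intervals from limma. The grey band holds 95% of all tested probes (changes of up to 0.70 in size), and Krt16 probe A_55_P2743401 is the only one whose interval leaves 0 out.

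Krt16, the wound keratin, gave different results with its 2 probes. Probe A_55_P2743401 had intensities of 423, 407 and 414 in wild-type mice and 380, 280 and 320 in knockout mice. All knockout arrays lay below all wild-type arrays. The log2 change was -0.45 ± 0.13 (SE, n = 3 and 3, unadjusted p = 0.00977, limma adjusted p = 0.313), which puts the knockout level at 0.734 times the wild-type level, with an interval of 0.596 to 0.903. The value did not pass the test over all probes. It was below 0 under all 18 alternative settings, between -0.52 and -0.39, with adjusted p from 0.143 to 0.692.

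Probe A_55_P2007756, assigned to the same Krt16 accession, was dim, with intensities of 51.5, 51.2 and 53.6 in wild-type mice and 38.5, 68.6 and 62.6 in knockout mice. Knockout replicate 1 was not well above background there and was the lowest array, while knockout replicates 2 and 3 were the highest, so the groups overlapped. Its log2 change was -0.016 ± 0.25 (SE, n = 3 and 3, limma adjusted p = 0.989), and without knockout replicate 1 it was 0.28. The software's error for a spot was 13.6% to 30.6% of its intensity for this probe, against 10.1% to 10.5% for the brighter one. The lower Krt16 value in knockout tissue thus came from 1 of the 2 probes.

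Krt17, a wound keratin like Krt16 and its chromosomal neighbour, varied most between mice of a group among the tested members. Its intensities were 175, 176 and 508 in wild-type mice and 255, 234 and 354 in knockout mice. Wild-type replicate 3 was the highest of the 6 arrays and the other wild-type arrays were the lowest. The fitted log2 change was 0.055 ± 0.39 (SE, n = 3 and 3, limma adjusted p = 0.978), with 0.549 to 1.97 times the wild-type level inside the interval. A smaller within-group SD than that of Krt17 was found for 95.3% of tested probes (0.61 on the log2 scale, against a median of 0.20). Without wild-type replicate 3 the log2 change was 0.52 (adjusted p = 0.306), and it turned to -0.19, -0.17 and -0.11 without wild-type replicate 2, wild-type replicate 1 and knockout replicate 3. Among the 4 mice with similar animal numbers, 2 per group, it was 0.36, and for Krt16 probe A_55_P2743401 it was -0.47. Between the third mice, 1 per group, the values were -0.55 for Krt17 and -0.40 for that Krt16 probe.

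**Figure D3:**
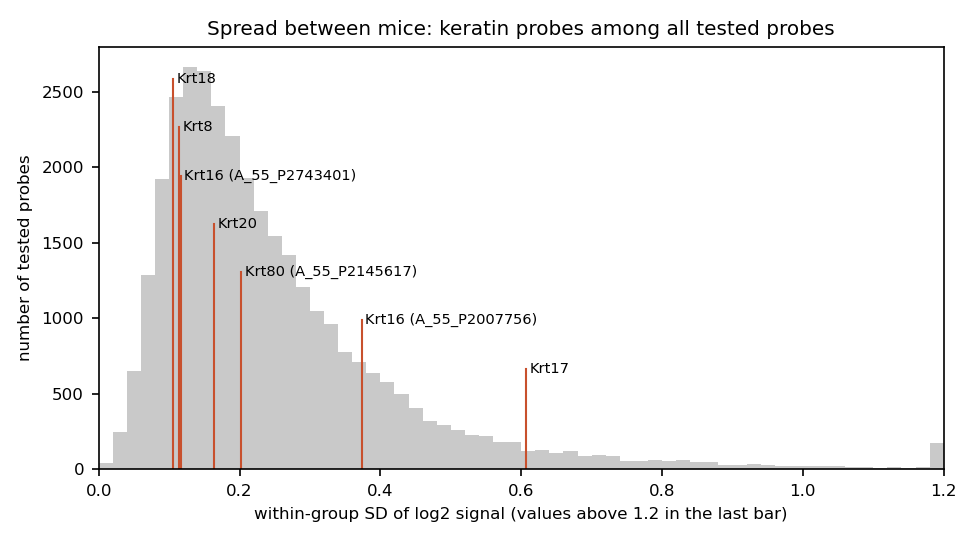
Within-group SD of log2 signal for all 33231 tested probes (grey bars) with the 7 tested keratin probes as vertical lines, whose heights only separate the labels. Krt18, Krt8 and Krt16 probe A_55_P2743401 sit at the low end, and Krt17 at 0.61 sits far to the right.

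Krt80, a type II keratin laid down as epithelial cells differentiate, was measured by probe A_55_P2145617 at 88.7, 99.0 and 73.9 in wild-type mice and 80.5, 66.2 and 76.9 in knockout mice. Wild-type replicate 3 lay among the knockout arrays and the other wild-type arrays above them. Knockout minus wild-type was -0.31 ± 0.16 on the log2 scale (SE, n = 3 and 3, limma adjusted p = 0.559), with 0.617 to 1.05 times the wild-type level inside the interval. Among the 4 mice with similar animal numbers it was -0.48, and between the third mice, 1 per group, it was 0.029. Without wild-type replicate 3 it was -0.47, and without wild-type replicate 2 it was -0.20. Its second probe, A_51_P152023, was well above background on 1 of 6 arrays, wild-type replicate 3, at intensities of 7.95 to 35.0 over all arrays, and was not tested.

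Array profiles most like those of 3 members were sought among 15250 other genes by Pearson's r over the 6 arrays, with marked spots kept, as a description without a test. The arrays share a slide. Nearest to Krt8 were Timm23, a mitochondrial import gene (r = 0.994), and Atp6v0d1, a proton pump subunit gene (r = 0.992). Nearest to Krt20 were Anpep, the gene of the brush border enzyme aminopeptidase N (r = 0.985), Ints3 (r = 0.983) and Flrt3 (r = 0.976). Nearest to Krt16 probe A_55_P2743401 were Cdk5rap3, Snx21 and A530020G20Rik, with r of 0.997, 0.997 and 0.995. For Krt17, added after its values were seen, they were 1700030C10Rik, Zfp354a and Hnrnpc, with r of 0.988, 0.985 and 0.982.

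Other keratins, mostly of stratified epithelium, gave 19 genes on the array, of which 11 were tested and 0 passed (limma). At an unadjusted p under 0.05, 0 were higher and 2 lower, Krt4 at a log2 change of -0.38 ± 0.12 (limma adjusted p = 0.346) and Krt2 at -0.28 ± 0.11 (limma adjusted p = 0.457). Their median log2 change was 0.016, against -0.058 for all tested probes. Krt14, the type I keratin of basal keratinocytes, had intensities of 161, 204 and 299.5 in wild-type and 275, 324 and 416 in knockout mice, with replicate 3 the highest of each group, as for Krt17. Its log2 change was 0.55 ± 0.24 (SE, n = 3 and 3, limma adjusted p = 0.488). Krt13, a keratin of internal stratified epithelium, was at 0.45 ± 0.21 (limma adjusted p = 0.506). Krt5, the basal partner of Krt14, and the wound keratin Krt6a were not well above background on any array. Krt42, the neighbour of Krt17, had intensities of 39635 to 53364, with 4 of its 6 spots marked, and was not tested. The summed level of this list, in units of each array's 75th percentile, was 15.1 to 17.7 in wild-type and 14.8 to 18.1 in knockout mice. Most of this sum came from the untested Krt42 probe, so it says little of the other keratins in the list. Krt14, Krt16, Krt17 and Krt42 are related type I genes, and signal shared between their probes was not tested.

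Squamous epithelium, a source of wound keratins at the anal margin, was read from 11 genes without keratins. Of these 7 were tested and 0 passed (limma, and 0 at an unadjusted p under 0.05), Dsg3 and Calml3 were not well above background on any array, and 5 were on all 6. The summed level was 22.4 to 22.9 in wild-type and 20.6 to 22.6 in knockout mice, most of it from 1 bright Trp63 probe (52200 to 59533), while a second Trp63 probe was not well above background on any array (4.90 to 11.2). Lor, the loricrin gene, was at a log2 change of -0.39 ± 0.20 and Col17a1 at 0.41 ± 0.23 (SE, n = 3 and 3). Their part in the keratin values was not tested.

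The partners of keratin filaments showed no call either. Of 17 genes for desmosomes and keratin linkers 12 were tested, 0 passed (limma) and 0 had an unadjusted p under 0.05. Their median log2 change was -0.015, with Jup, the plakoglobin gene, at 0.31 ± 0.24, the desmosomal cadherin gene Dsg2 at 0.22 ± 0.19, the plakophilin gene Pkp3 at -0.076 ± 0.17 and the linker gene Plec at 0.064 ± 0.17. Of 13 keratin-binding or keratin-processing genes 11 were tested and 0 passed, with 1 higher at an unadjusted p under 0.05, the small heat shock gene Hspb1 at 0.67 ± 0.27 (limma adjusted p = 0.450). Ogt, which adds sugar to keratins, was at -0.23 ± 0.14, and Tradd, an adaptor that binds Krt18, at -0.18 ± 0.13. Of 13 other intermediate filament genes 11 were tested and 0 passed, with 1 lower at an unadjusted p under 0.05, the synemin gene Synm at -0.40 ± 0.14 (limma adjusted p = 0.403). In the same list Des was at -0.31 ± 0.18, Nefm at 0.32 ± 0.28 and Prph at -0.23 ± 0.21.

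Markers of other cells that carry or lack keratins were compared too, and 0 genes passed in any of these lists (limma). Mesothelial cells, which make Krt7, Krt8, Krt18 and Krt19, were read from 6 genes, 5 of them below 0 with a median log2 change of -0.48. Wt1 was at -1.16 ± 0.52, Lrrn4 at -1.08 ± 0.80, Gpm6a at -0.64 ± 0.34 and Upk1b at 0.19 ± 0.18. For Wt1, Lrrn4 and Gpm6a knockout replicate 1 was lowest, at scaled log2 values of -7.12, -7.00 and -6.40. These lay below the lowest value well above background on that array, -6.12. Knockout replicate 2 also lay below all wild-type arrays for each, at -6.22, -5.96 and -6.18. Those values were above the lowest value well above background on its array, -6.59. Knockout replicate 3 lay within or above the wild-type range for each, at -4.86, -3.79 and -5.21. The summed level of the 6 genes was 0.390 to 0.476 in wild-type and 0.350 to 0.533 in knockout mice. Only Upk1b, the 1 gene above 0, was well above background on all arrays. It gave the largest part of the sum on every array, so the sum says little of the other 5. Median log2 changes were -0.033 for urothelium, -0.082 for crypt base and proliferation, -0.037 for fibroblasts and smooth muscle and 0.18 for immune cell genes. Summed levels in wild-type and knockout mice were 7.03 to 7.60 and 7.41 to 8.46 for urothelium, where Upk2 was not well above background on any array. They were 22.4 to 25.5 and 21.9 to 24.7 for crypt base and proliferation. They were 17.4 to 20.2 and 13.9 to 21.2 for fibroblasts and smooth muscle, where Pdgfra was not well above background on any array, and 2.68 to 3.12 and 2.84 to 3.42 for immune cells. Most of the urothelial sum came from Foxa1, so it says little of the other urothelial genes. Most of the crypt base and proliferation sum came from Pcna, Mki67 and Top2a, so it says little of the crypt base genes. Most of the fibroblast and smooth muscle sum came from the actin genes Acta2 and Actg2, so it says little of the other genes in that list. The fibroblast and smooth muscle list held 1 gene lower at an unadjusted p under 0.05, Myh11, the smooth muscle myosin gene, at -0.47 ± 0.12 (limma adjusted p = 0.269). Among immune genes 1 was higher, Jchain, which joins antibody subunits in plasma cells, at 1.2 ± 0.24 (limma adjusted p = 0.195). Of 6 endothelial genes 2 were tested, and Tek, Emcn, Cdh5 and Kdr were not well above background on any array. The endothelial sum was 0.427 to 0.502 in wild-type and 0.374 to 0.494 in knockout mice. The part of all these cells in the keratin values was not tested. Among pan-epithelial genes 5 of 10 were tested, with Cldn4, a tight junction gene, higher at an unadjusted p under 0.05, at 0.93 ± 0.28 (limma adjusted p = 0.332). The other 4 were below 0, Esrp1, an epithelial splicing regulator gene, at -0.35 ± 0.24 (limma adjusted p = 0.656), and the median was -0.046. The summed level of the 10 genes was 65.4 to 72.1 in wild-type and 61.9 to 68.4 in knockout mice.

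**Figure D4:**
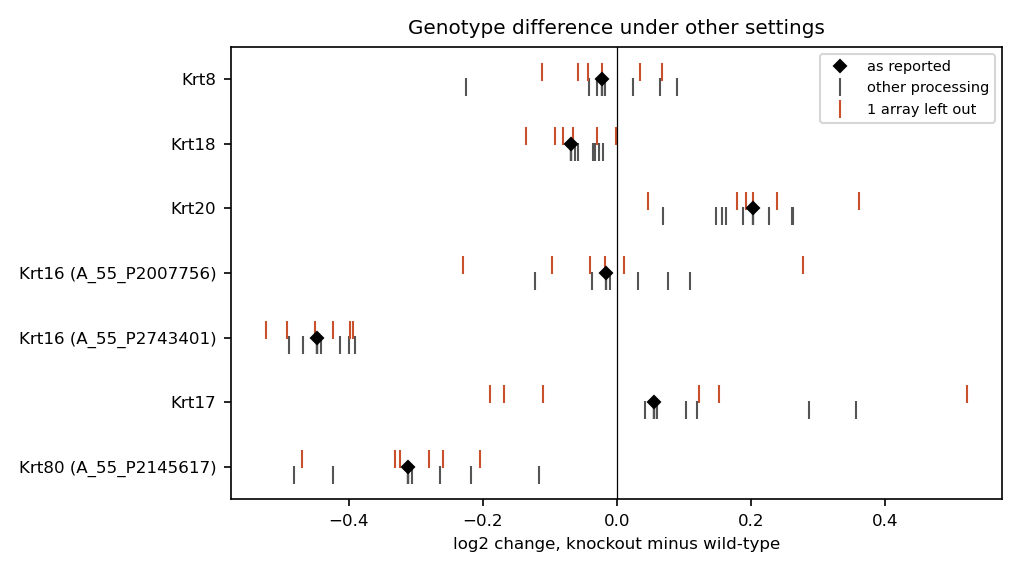
Log2 change, knockout minus wild-type, of the 7 tested keratin probes as reported (diamonds), under other processing (grey ticks) and with 1 array left out (red ticks). Krt16 probe A_55_P2743401, Krt18 and Krt80 stay below 0 and Krt20 above 0 at every tick, whereas Krt8, Krt17 and the dim Krt16 probe fall on both sides.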

How the data were processed

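RNA from 6 mice was measured on Agilent one-colour arrays. The deposited intensity values are, per the file headers, background-subtracted and detrended processed signals of Agilent's extraction software, version 11.5.1.1, without normalization between arrays. The submitters' processing notes give its version as 10.7. The deposited table of the whole series carries this linear intensity too (99.75% of values within 0.01 log2 units of the scanner values; column medians 230.0 to 261.6), so its scale and direction are known and no centring was found. Probes were named by matching RefSeq accessions to a RefSeq gene table (GRCm38.p6), which gave 33767 of 56605 probes a symbol. The array design names mm9, so that table served for names, chromosomes and gene order only, and the probe sequences were not used here.

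The log2 of the processed intensity minus each array's 75th percentile over 59305 non-control spots was used. Spots marked by the software (non-uniform, outlying) or manually were left out, replicate spots were averaged, and 0 spots were saturated. A probe was tested when well above background on at least 3 arrays with at least 2 unmarked arrays per group, and every probe of a gene was kept. Of members, 7 of 11 probes met this. Genotypes were compared with limma 3.58.1 (lmFit, eBayes, two-sided, no covariate; R 4.3.3), adjusted by Benjamini-Hochberg over 33231 probes at 0.05, and the procedure was tested on simulated data. Nothing says how the mice were bred or housed, so p-values measure only the spread between these arrays. Their number, 3 per group, limits the precision.

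Every member probe is named. Of each other list, counts use the brightest tested probe of a gene, and up to 4 genes with the smallest unadjusted p are named. Genes singled out after their values were seen are named too (Krt5, Krt6a, Krt42, the untested marker genes, and genes that make up most of a sum). Summed levels keep marked spots and can rest on another probe of a gene than its test. The members, lists and alternatives were chosen with earlier results of these data known. Some genes that this rule selects are not reported here. Normexp used the median spot signal, as the mean signal is not among the columns used here. SD is over arrays and SE is from limma, with n for wild-type and knockout arrays.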

Additional observations from a re-analysis of the deposited data

How the results depend on the processing

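The count of 0 keratin probes past the threshold held under all 18 alternatives, with their median log2 change between -0.14 and 0.06. The count over all probes, 69, changed with the processing: 125 with normexp on median signals, 44 with no filter on dim probes, 33 with the filter at all 6 arrays, 130 with array weights, 128 with trend and robust variance and 199 with the slide column as a block. Only columns 1 and 2 held both genotypes, so with that block the genotype estimate came from replicates 1 and 2 of each group alone. Leaving out 1 array gave 31 to 141, the lowest without wild-type replicate 1 and the highest without knockout replicate 3. It was 34 when wild-type replicate 2 and 33 when knockout replicate 2 was left out. The cause was not tested.

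Some small keratin changes turned sign. Krt8 was at 0.090 with normexp, 0.063 with quantile normalization and 0.024 with median centring. With 1 array left out Krt8 was between -0.11 and 0.068, and both ends of this range rest on a single unmarked wild-type array. The dim Krt16 probe A_55_P2007756 was at 0.11 with quantile normalization, 0.031 with median centring and 0.075 with array weights, and between -0.23 and 0.28 with 1 array left out. Krt17 lay between -0.19 and 0.52 with 1 array left out. No paired analysis was possible because the replicate numbers follow accession order and pair no mice, and the slide column above is a position on the slide. A block that set the 4 mice with similar animal numbers against the other 2 called 77 probes and 0 keratin probes. Signal over background limits the dim Krt16 and Krt80 probes.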
